A study of Mus musculus with 9 samples.

Results

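The major urinary protein (Mup) genes described here are 10 genes of the mouse liver, Mup1, Mup2, Mup3, Mup5, Mup7, Mup12, Mup17, Mup19, Mup21 and Mup22. They are 10 of the 24 Mup rows among 17846 genes in the deposited tables, and they were picked by symbol with earlier results of these data known, from the comparisons of NASH with Control and of NASH+Exercise with NASH. Their own changes in these comparisons are therefore given as a description, and counts of called genes among them are not read as evidence. RNA sequencing had been done on liver of 9 male wild type mice of the strain C57/BL, 3 in each group, with 1 library per mouse, to ask how treadmill training acts on diet-induced non-alcoholic steatohepatitis (NASH). Control mice had normal chow and stayed sedentary. NASH mice were sedentary and had the Ath diet, an atherosclerotic chow with added cholesterol and cholate, for 20 weeks. NASH+Exercise mice had the Ath diet for 12 weeks before training and then ran on a treadmill for 8 weeks. They ran at 12 m/min for 1 hour a day on 5 days a week. Their total time on the diet is not given in the sources used here. Training or its sedentary counterpart began at 20 weeks of age, and all mice were fasted overnight before the liver was taken.

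Major urinary proteins are small secreted lipocalins, barrel-shaped carriers of hydrophobic molecules. Hepatocytes of adult male mice make them in large amounts, and they pass through the kidney into the urine, where they hold volatile pheromones and act as scent signals themselves. Their genes and pseudogenes form a cluster of recent duplicates on mouse chromosome 4, and their liver transcription is known to depend on pulsatile growth hormone acting through STAT5b, on androgen and on thyroid hormone. The protein of Mup20, a gene of the cluster outside the 10, is darcin, which attracts females.

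The 10 genes lay on chromosome 4 (GENCODE M21 annotation, GRCm38), all on the minus strand, between Mup7 at chr4:60066469-60070475 and Mup21 at chr4:62147932-62150863. Among them, 7 coding sequences were near-identical. Mup1 (chr4:60498012-60501960), Mup2 (chr4:60135932-60154289), Mup7, Mup12 (chr4:60737383-60741326), Mup17 (chr4:61591929-61595871), Mup19 (chr4:61778324-61782269) and Mup22 (chr4:60817589-60821463) shared 98.35 to 99.63% of their coding bases with each other. Mup3 (chr4:62083476-62087342), Mup5 (chr4:61831319-61835233) and Mup21 shared only 82.16 to 90.61% with these 7. The contrast is visible in bases 127 to 186 of the Mup2 coding sequence, counted from the start codon, and in the aligned stretches of the other genes (GENCODE M21). Capitals mark bases that differ from Mup2. In this stretch Mup1, Mup12, Mup19 and Mup22 had the sequence of Mup2, Mup21 had that of Mup3, and Mup20 is shown beside them.
Mup2: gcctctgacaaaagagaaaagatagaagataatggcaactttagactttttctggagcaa
Mup7: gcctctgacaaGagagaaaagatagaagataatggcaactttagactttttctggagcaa
Mup17: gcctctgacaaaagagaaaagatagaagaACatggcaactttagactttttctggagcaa
Mup5: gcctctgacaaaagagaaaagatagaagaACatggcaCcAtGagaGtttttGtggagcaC
Mup3: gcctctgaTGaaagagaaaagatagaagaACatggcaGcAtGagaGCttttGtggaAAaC
Mup20: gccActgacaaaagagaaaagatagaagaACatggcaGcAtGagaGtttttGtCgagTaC

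Reads from such copies cannot always be told apart. Of all windows of 100 bases along the transcript, 0% were found in no other Mup gene for Mup19 and Mup22. The share was 2.66% for Mup2, 12.8% for Mup1, 12.9% for Mup7, 22.5% for Mup12 and 40.6% for Mup17. Mup21, Mup3 and Mup5 stood apart with 95.5, 97.1 and 98.7%, and Mup20 had 61.2%. Values of single near-identical copies are thus uncertain, since they depend on how the authors' estimation divided shared reads, and the sums over copies are the firmer values. In all, 16 Mup rows, 7 of them among the 10 genes, had at least 98% coding identity to Mup2 and are called near-identical rows below.

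Promoter windows of 300 bases (RefSeq, GRCm38.p6, from 250 bases before to 50 after the start) were at hand for 6 of the 10 genes, Mup2, Mup3, Mup7, Mup17, Mup19 and Mup21. No window was used for Mup1, Mup5, Mup12 and Mup22. The windows of Mup2 and Mup19 are shown because both belong to near-identical copies, and that of Mup3 because its transcript can be counted on its own. Mup2 is at chr4:60139807-60140106, Mup19 at chr4:61782175-61782474 and Mup3 at chr4:62087268-62087567, all on the minus strand. Capitals mark 2 motifs. One is TATATAA, a core promoter box. The other is ATTGATT, a motif of the ONECUT (HNF6) factors, which appears as its reverse complement on the strand printed.
Mup2: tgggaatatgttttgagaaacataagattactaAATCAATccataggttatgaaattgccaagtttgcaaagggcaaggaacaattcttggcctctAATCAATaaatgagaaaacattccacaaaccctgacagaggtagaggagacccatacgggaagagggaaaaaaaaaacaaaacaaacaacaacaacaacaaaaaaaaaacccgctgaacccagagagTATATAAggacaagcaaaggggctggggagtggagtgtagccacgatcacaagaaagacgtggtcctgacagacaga
Mup19: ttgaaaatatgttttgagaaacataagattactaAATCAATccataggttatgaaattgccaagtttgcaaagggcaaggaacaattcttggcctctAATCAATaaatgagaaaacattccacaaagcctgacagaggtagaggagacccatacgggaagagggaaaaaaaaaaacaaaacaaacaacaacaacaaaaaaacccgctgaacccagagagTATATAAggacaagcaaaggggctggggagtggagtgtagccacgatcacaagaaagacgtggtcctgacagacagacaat
Mup3: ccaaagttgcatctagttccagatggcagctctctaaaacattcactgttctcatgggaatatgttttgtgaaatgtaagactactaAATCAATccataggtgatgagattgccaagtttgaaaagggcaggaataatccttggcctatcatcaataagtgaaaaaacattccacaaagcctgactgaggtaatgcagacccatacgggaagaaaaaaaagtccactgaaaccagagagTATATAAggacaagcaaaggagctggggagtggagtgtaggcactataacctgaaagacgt

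The motifs were chosen after the windows had been read, both strands were searched, and a match is no more than a run of letters. TATATAA occurred in 5 of the 6 windows, against 3.24% of 32851 mouse promoters. The exception was Mup7, whose window ends before the stretch that holds TATATAA in Mup2, Mup17 and Mup19. Whether Mup7 has the box there was thus not seen. ATTGATT occurred in 6 of 6, with 2 matches in Mup2, Mup7, Mup17 and Mup19 and 1 match in Mup3 and Mup21, against 2.86% of all promoters. TTCNNNGAA, the motif of STAT5, was in 0 of 6 windows and in 8.30% of all promoters. The windows of related copies are not independent of each other.

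Depth was even, with 20085976 to 22495408 estimated counts per mouse, and 13619 genes were tested with edgeR's quasi-likelihood method. Calls needed an adjusted p under 0.05 together with a log2 fold change beyond 1 in either direction. Values per mouse are CPM, counts relative to the library total after TMM scaling, and levels of different genes are compared only as TPM, which also corrects for transcript length. TMM gave Control libraries factors of 0.80 to 0.976, NASH libraries 1.09 to 1.23 and NASH+Exercise libraries 0.912 to 1.08. With library size alone as the scale, the all-gene median of the log2 fold change shifted by 0.35 in NASH against Control, by -0.20 in NASH+Exercise against NASH and by 0.15 in NASH+Exercise against Control. Summed CPM of 23 hepatocyte secreted proteins such as albumin was 227960 to 290200 in Control mice, 172290 to 223980 in NASH mice and 218340 to 257520 in trained mice. Summed CPM of 10 macrophage markers was 94.7 to 173, 1056 to 1168 and 788 to 944 in the same order. In whole liver, fewer hepatocytes and less Mup RNA per hepatocyte cannot be told apart.

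In NASH liver the near-identical copies were far below Control, and by very unequal amounts. Mup1 (Entrez Gene 17840) had 960, 1995 and 356 CPM in Control replicates 3, 4 and 29. It had 1.91, 7.49 and 3.66 CPM in NASH replicates 5, 19 and 20, and 128, 428 and 739 CPM in NASH+Exercise replicates 8, 18 and 22. Every NASH mouse was below every mouse of the other groups, with a log2 fold change of -7.98 ± 0.99 (SE) in NASH against Control. Mup7 (100041658), one of the more abundant copies, had 6934, 12070 and 3827 CPM in Control. Its values were 38.1, 168 and 153 CPM in NASH and 2092, 7406 and 9023 CPM in NASH+Exercise. The NASH mice again stood clear of both other groups, and the log2 fold change in NASH against Control was -5.99 ± 0.82 (SE).

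Mup12 (100039054) had 1402, 2646 and 598 CPM in Control, 10.6, 18 and 11.7 CPM in NASH, and 171, 428 and 780 CPM in NASH+Exercise. Mup17 (100039206) had 503, 950 and 25.5 CPM in Control, 1.99, 14.3 and 5.99 CPM in NASH, and 49.0, 475 and 546 CPM in NASH+Exercise. Neither gene had a NASH mouse within the range of Control, although Control replicate 29 came near it for Mup17. The log2 fold changes in NASH against Control were -6.85 ± 0.76 for Mup12 and -6.05 ± 1.42 for Mup17 (SE).

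The other near-identical copies lost less. Mup19 (100189605) had 9484, 11230 and 4515 CPM in Control, 256, 803 and 812 CPM in NASH, and 2983, 5426 and 6636 CPM in NASH+Exercise. Mup2 (17841) had 4577, 4180 and 1908 CPM in Control, 627, 924 and 944 CPM in NASH, and 1966, 4047 and 3753 CPM in NASH+Exercise. Mup22 (100861909) had 6681, 6466 and 4895 CPM in Control, 1356, 1868 and 2252 CPM in NASH, and 4661, 5741 and 5991 CPM in NASH+Exercise. In each of the 3 the NASH mice were below both other groups without overlap. The log2 fold changes in NASH against Control were -3.75 ± 0.54 for Mup19, -2.10 ± 0.37 for Mup2 and -1.72 ± 0.22 for Mup22 (SE).

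**Figure D1:**
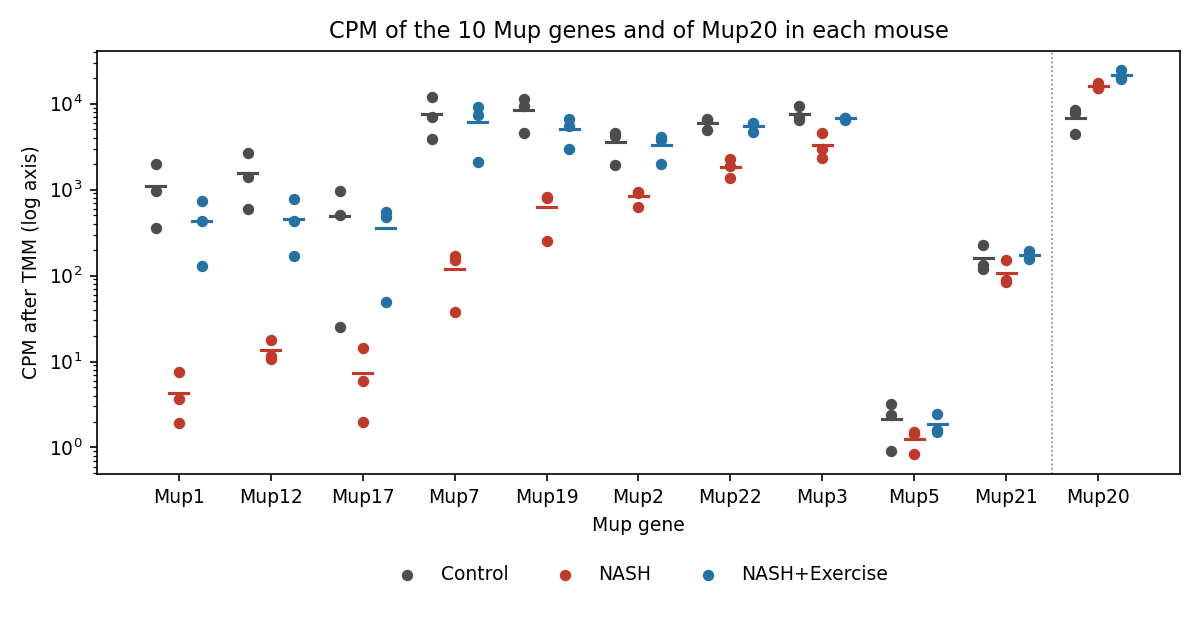
CPM after TMM (log axis) of the 10 Mup genes, ordered by their log2 fold change in NASH against Control, and of Mup20 to the right of the dotted line. Each point is 1 mouse and each bar the mean of 3 mice. The NASH points of Mup1 lie between 1.91 and 7.49 CPM, below all other mice, while those of Mup20 lie between 14990 and 17564 CPM, above all Control mice.

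Of the genes with a transcript of their own, Mup3 moved with the copies but less. Mup3 (17842), a liver Mup, had 9344, 6514 and 6990 CPM in Control. It had 2936, 2354 and 4588 CPM in NASH and 6849, 6843 and 6513 CPM in NASH+Exercise. The NASH mice were below all others, with a log2 fold change of -1.21 ± 0.25 (SE) in NASH against Control. Of its transcript windows, 97.1% were its own.

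Mup21 (381531) and Mup5 (17844) overlapped between NASH and Control. Mup21 had 224, 134 and 120 CPM in Control, 83.2, 88.4 and 152 CPM in NASH, and 174, 156 and 191 CPM in NASH+Exercise. Mup5, which is mainly a gene of glands outside the liver, had 2.36, 3.17 and 0.918 CPM in Control, 0.831, 1.51 and 1.44 CPM in NASH, and 2.44, 1.51 and 1.61 CPM in NASH+Exercise. The highest NASH mouse of each gene was thus within the Control range. Their log2 fold changes in NASH against Control were -0.56 ± 0.28 for Mup21 and -0.76 ± 0.43 for Mup5 (SE).

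By the thresholds, 8 of the 10 genes were called lower in NASH than in Control, all but Mup5 and Mup21, and 0 were called higher, where 3.03% of all genes tested were called lower and 15.3% higher. The same 8 did not overlap between the groups, against 22.2% of all genes that were lower without overlap. The genes were picked on this contrast, so nothing is read from these counts. The median log2 fold change was -2.92 over the 10 genes and 0.013 over all genes tested.

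Mup20 (381530), the row with the highest mean TPM among the other 14, went the opposite way. It had 8315, 7836 and 4424 CPM in Control, 15035, 14990 and 17564 CPM in NASH, and 20285, 19137 and 24608 CPM in NASH+Exercise. All NASH mice were above all Control mice, and all NASH+Exercise mice were above all NASH mice. It rose in NASH against Control by a log2 fold change of 1.21 ± 0.24 (SE; edgeR, adjusted p = 0.0033). Without Control replicate 29, its lowest mouse, the log2 fold change was 0.94 (edgeR, adjusted p = 0.0076), under the fold threshold. It also rose in NASH+Exercise against Control, by 1.64 ± 0.25 (SE; edgeR, adjusted p = 0.00084). The step from NASH to NASH+Exercise was 0.43 ± 0.24 (SE) and was not called (edgeR, adjusted p = 0.43). Mup20 shared 90.11 to 91.21% of its coding bases with the 7 near-identical genes, and whether reads of other copies were counted in it was not tested.

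**Figure D2:**
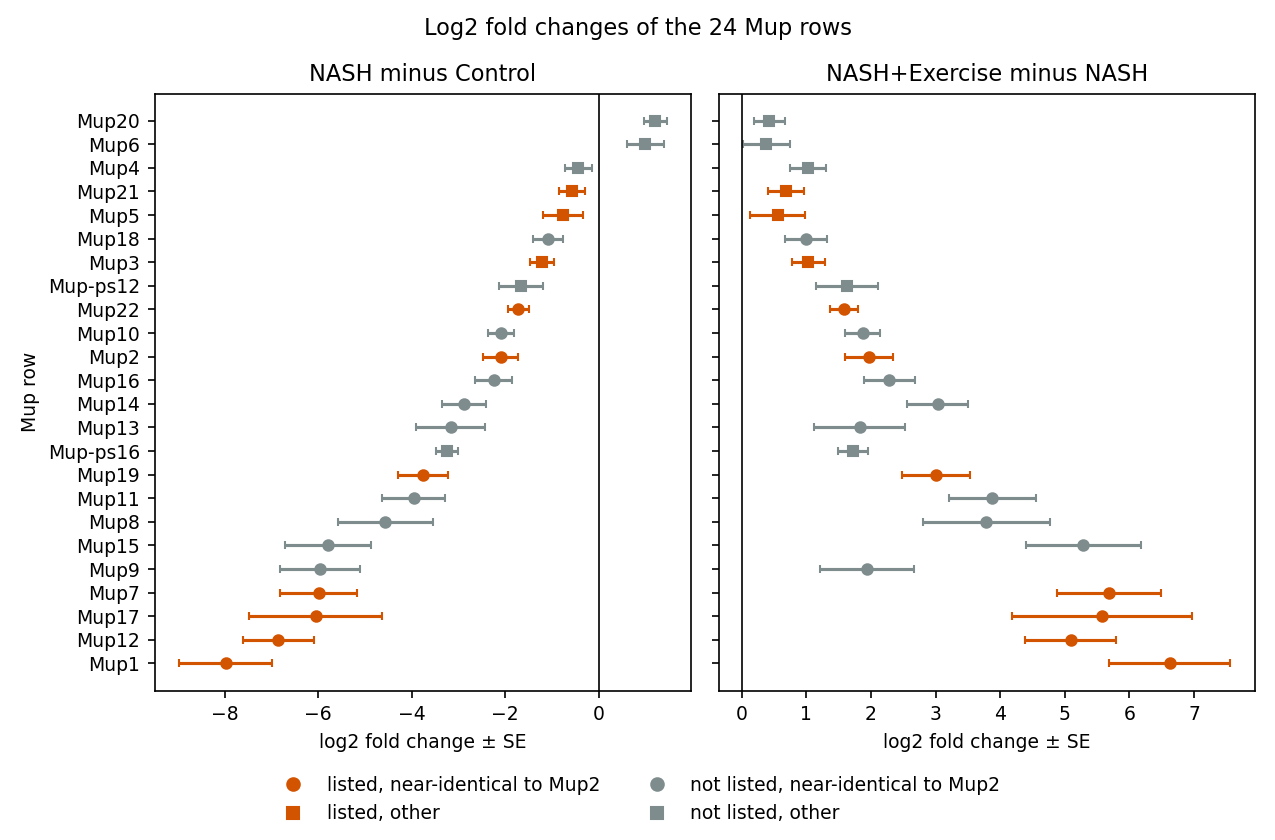
Log2 fold change ± SE of the 24 Mup rows, ordered by the comparison of NASH with Control (left panel) and shown for NASH+Exercise minus NASH (right panel), which shares the NASH mice. Orange marks the 10 genes and circles the near-identical rows. Mup20 and Mup6 are the 2 rows above 0 in the left panel, and all 24 rows are above 0 in the right panel.

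The make-up of the Mup pool therefore differed between groups. Of all Mup counts, the 16 near-identical rows together held 76.3% ± 6.18 in Control mice, 25.2% ± 4.79 in NASH mice and 57.5% ± 10.1 in trained mice (SD, n = 3). Mup20 alone held 10.6% ± 1.21, 61.8% ± 4.19 and 31.9% ± 7.31 (SD, n = 3) in the same order. In single mice, the share of Mup20 was 9.18 to 11.3% for Control, 58.4 to 66.5% for NASH and 26.2 to 40.1% for NASH+Exercise, with no overlap between groups. The share of Mup3 was 12.7% ± 5.05, 12.6% ± 2.91 and 10.2% ± 2.99 (SD, n = 3), with groups that overlapped.

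**Figure D3:**
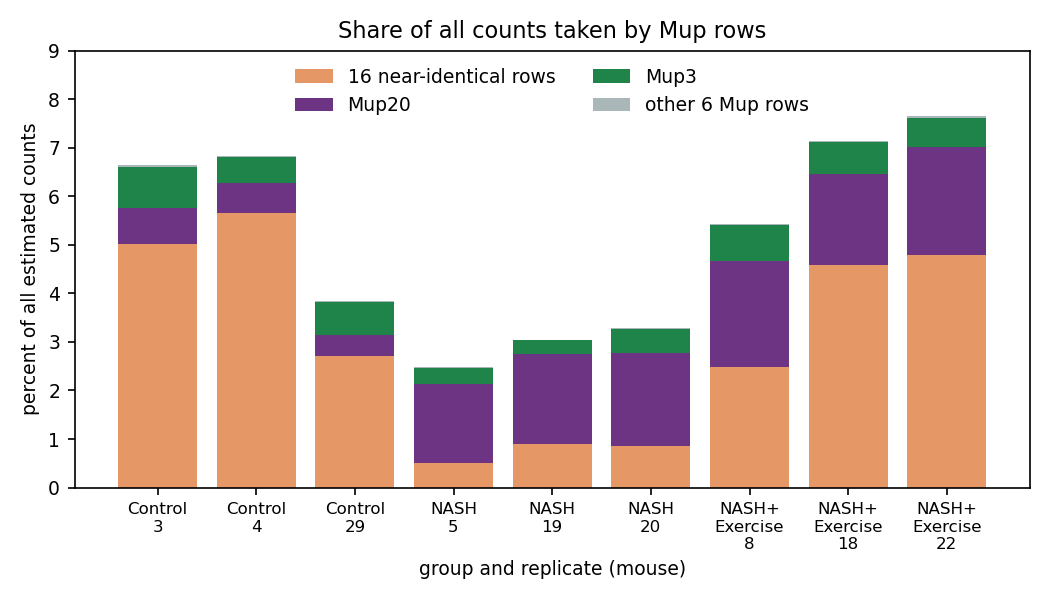
Percent of all estimated counts in each of the 9 mice that fell on Mup rows, stacked by the 16 near-identical rows, Mup20, Mup3 and the other 6 rows. The near-identical rows take 2.72 to 5.66% in Control mice and 0.498 to 0.903% in NASH mice, where Mup20 is the larger block.

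The summed family gave a smaller contrast with Mup20 than without it. All 24 rows summed to 73304, 85371 and 39438 CPM in Control, 22624, 24818 and 30068 CPM in NASH, and 50535, 73014 and 83816 CPM in NASH+Exercise. NASH mice were below all others, with a mean 2.56 times lower than Control, and 5.93 times lower when Mup20 was left out. The 10 genes summed to 23236 to 46186 CPM in Control, 5311 to 8923 CPM in NASH and 19075 to 34173 CPM in NASH+Exercise. Their mean was 5.35 times lower in NASH than in Control. The 16 near-identical rows, whose sum does not depend on how reads were divided among them, had 27853 to 70766 CPM in Control, 4550.5 to 7739 CPM in NASH and 23169 to 52419 CPM in NASH+Exercise. Their mean was 7.84 times lower in NASH than in Control and 6.23 times higher in NASH+Exercise than in NASH.

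Within the near-identical rows, the division among copies shifted as well. Mup22 took 12.9% ± 4.28 of their counts in Control mice, 28.1% ± 2.36 in NASH mice and 14.6% ± 4.79 in trained mice (SD, n = 3). Mup2 went the same way, with 7.01% ± 1.19, 12.8% ± 0.837 and 8.10% ± 0.815. Mup7 had 14.4% ± 2.34, 1.70% ± 0.763 and 14.0% ± 4.38 (SD, n = 3), the reverse of Mup22. Mup19 took 16.4% ± 0.66, 9.01% ± 2.95 and 12.4% ± 0.687 (SD, n = 3). Of the genes described here, Mup22 and Mup2 gained share, and they have 0 and 2.66% of windows of their own. Outside them Mup10 gained as well, from 15.7% ± 2.70 in Control to 28.1% ± 2.50 in NASH (SD, n = 3). The mean shares of Mup16 and Mup18 also rose in NASH, from 1.06 to 1.72% and from 1.02 to 3.53%. Mup10, Mup16 and Mup18 have 14.6, 19.9 and 12.9% of windows of their own. A shift of shared reads toward such rows cannot be told apart from a smaller loss of their RNA.

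**Figure D4:**
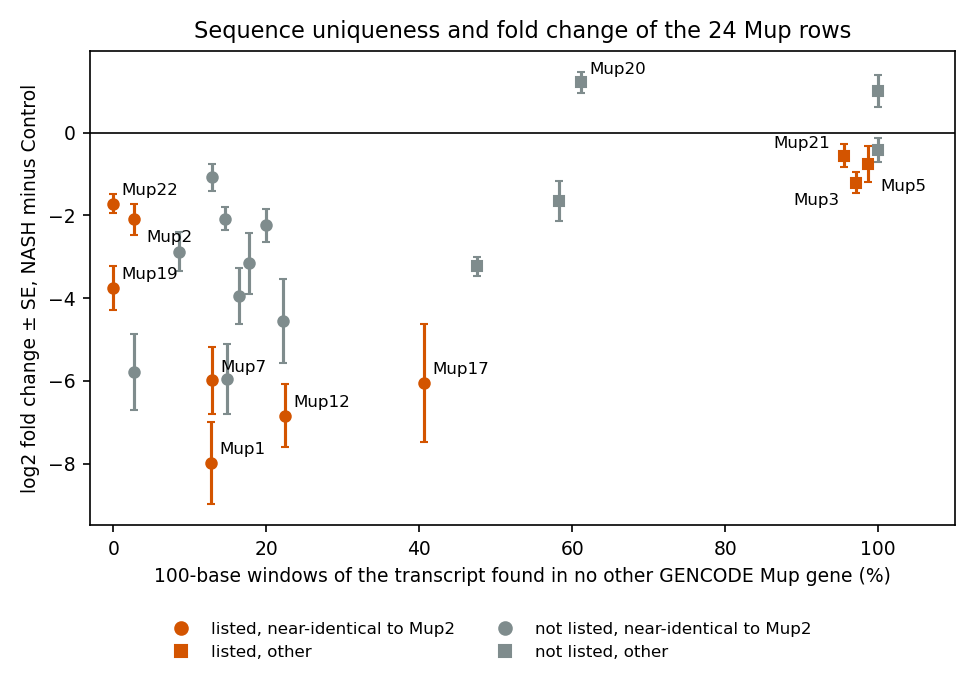
Share of 100-base transcript windows found in no other GENCODE Mup gene (x axis, percent) against the log2 fold change ± SE in NASH minus Control (y axis) for the 24 Mup rows. Colours and symbols are as in the plot of log2 fold changes. Among near-identical rows with under 41% of windows of their own, the fold changes spread from -7.98 for Mup1 to -1.08 for Mup18, while Mup3, Mup5 and Mup21 lie near 100% with -1.21, -0.76 and -0.56.

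Each of the 10 genes had a higher estimate in treadmill-trained than in sedentary NASH mice, and 4 were called. The order of the changes was close to the reverse of that in NASH, which shares the NASH mice, so the values are given side by side only. Mup1 differed by a log2 fold change of 6.62 ± 0.94, Mup7 by 5.69 ± 0.80, Mup17 by 5.58 ± 1.39 and Mup12 by 5.09 ± 0.71 (SE). Mup19 differed by 3.01 ± 0.52, Mup2 by 1.97 ± 0.37, Mup22 by 1.58 ± 0.22 and Mup3 by 1.03 ± 0.25 (SE). Mup21 and Mup5 were at 0.69 ± 0.28 and 0.55 ± 0.43 (SE). The first 9 in this account had every NASH+Exercise mouse above every NASH mouse, and Mup5 overlapped.

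By the thresholds, 4 of the 10 genes, Mup1, Mup7, Mup12 and Mup22, were called higher in NASH+Exercise than in NASH and 0 lower, where 0.103% of all genes were called higher and 0.0367% lower. Non-overlap upward held for 9 of the 10 and for 9.16% of all genes. The genes were picked on this contrast too, and nothing is read from these counts. These calls depended on single mice. Of the 10 genes, 0 were called without Control replicate 3, without any 1 of NASH replicates 5, 19 and 20, or without NASH+Exercise replicate 18 or 22. Without Control replicate 4, 1 was called, and 8 were called with DESeq2. At an unadjusted p under 0.05, 9 passed in edgeR.

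NASH+Exercise and Control overlapped for all 10 genes, where 38.6% of all genes tested did not overlap. Log2 fold changes ran from -1.75 ± 0.61 (SE) for Mup12 to 0.12 ± 0.27 (SE) for Mup21, with a median of -0.25. Mup1 and Mup12 had the lowest means relative to Control, 2.56 and 3.37 times lower, and Mup22 and Mup2 were within 1.10 times. In edgeR 0 of the 10 were called, 1 had an unadjusted p under 0.05 and DESeq2 called 1, where 10.4% of all genes were called higher and 3.07% lower. The 24 rows summed to a mean of 66038 CPM ± 23813 in Control and 69122 CPM ± 16979 in NASH+Exercise (SD, n = 3). The 10 genes alone summed to 36511 CPM ± 11891 and 28067 CPM ± 7952 (SD, n = 3), the opposite order.

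On the TPM scale the ranks of the genes differed between groups. In Control, Mup19 was first with 14044 TPM ± 4484, followed by Mup3 with 12442 ± 3132, Mup7 with 10974 ± 4591, Mup22 with 9079 ± 1035 and Mup2 with 6824 ± 2422 (SD, n = 3). Neighbours among these 5 overlapped. Mup12 followed with 2505 TPM ± 1376, below every Mup2 value, and then came Mup1, Mup17 and Mup21, each overlapping the next, with Mup21 at 323 TPM ± 118. Mup5 was apart at 4.61 TPM ± 1.88.

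In NASH, Mup3 led with 7104 TPM ± 2108, above all values of Mup22 with 3727 ± 897, which in turn were above those of Mup2 with 2190 ± 528 (SD, n = 3). Mup19 had 1464 TPM ± 772 and overlapped Mup2. Mup7 had dropped to 247 TPM ± 153 and overlapped Mup21 with 291 TPM ± 89.5. Mup12, Mup17, Mup1 and Mup5 had 31.5, 17.7, 10.7 and 3.52 TPM, each overlapping the next. In NASH+Exercise, Mup3 had 12010 TPM ± 1650, Mup7 9807 ± 5160, Mup19 9246 ± 2579 and Mup22 9050 ± 354 (SD, n = 3), with overlap between neighbours, and Mup2 followed with 6868 TPM ± 1938 below all Mup22 values. Mup20 had 11510 TPM ± 2878 in Control, 36504 TPM ± 2361 in NASH and 39815 TPM ± 3949 in trained mice (SD, n = 3), so in NASH its mean was above that of every one of the 10 genes.

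Mice of a group differed more in some Mup genes than in others. In Control, the highest mouse had 37.2 times the CPM of the lowest for Mup17, 5.61 times for Mup1, 4.42 times for Mup12 and 3.15 times for Mup7. The ratio was 1.37 for Mup22 and 1.43 for Mup3. Control replicate 29 was the lowest Control mouse in 9 of the 10 genes, Mup3 being the exception. In NASH+Exercise the ratio was 11.1 for Mup17, 5.76 for Mup1, 4.56 for Mup12, 4.31 for Mup7 and 1.05 for Mup3. Replicate 8 was the lowest trained mouse in all 7 near-identical genes. For Mup17 the lowest Control mouse, with 25.5 CPM, was below the lowest trained mouse, with 49.0 CPM. In NASH, replicate 5 was the lowest mouse in 9 of the 10 genes, again with the exception of Mup3.

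Of the 14 Mup rows outside the 10 genes, 11 were called lower and 1, Mup20, was called higher in NASH against Control (edgeR). Over all genes tested, 3.03% were called lower and 15.3% higher. Among the near-identical ones, Mup10 (100039008) had the highest mean TPM. It fell in NASH, with a log2 fold change of -2.08 ± 0.28 (SE; edgeR, adjusted p = 0.00025), and rose by 1.87 ± 0.28 (SE; edgeR, adjusted p = 0.040) with training. Mup15 (100039150) and Mup8 (100041687) were lower in NASH too, at -5.79 ± 0.92 and -4.56 ± 1.02 on the log2 scale (SE; edgeR, adjusted p = 0.0012 and 0.0073). Mup10, Mup15 and Mup8 had only 14.6, 2.66 and 22.2% of 100-base windows of their own. Their counts can hold reads of the 10 genes, which were picked on these contrasts, so their p-values are no separate evidence. All 14 rows had a higher estimate in NASH+Exercise than in NASH. Of them 2, Mup10 and the pseudogene Mup-ps16, were called, against 0.103% of all genes called higher.

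The estimate for Mup9 (100038948), a near-identical row, did not return to the Control range with training. Only 14.9% of its 100-base windows were its own, and whether the division of shared reads produced this was not tested. Mup9 had 676, 776 and 408 CPM in Control, 1.08, 14.2 and 14.6 CPM in NASH, and 20.0, 36.5 and 58.3 CPM in NASH+Exercise. Trained mice were above all NASH mice yet below all Control mice, by a log2 fold change of -4.02 ± 0.77 (SE; edgeR, adjusted p = 0.0045). Mup-ps16 had the same order, with 31.2 to 45.9 CPM in Control, 3.28 to 5.20 CPM in NASH and 10.8 to 15.9 CPM in NASH+Exercise. It was called in all 3 comparisons (edgeR, adjusted p = 8.0e-06 in NASH against Control, 0.040 in NASH+Exercise against NASH and 0.00063 in NASH+Exercise against Control). With library size alone the call between trained and sedentary NASH mice was lost. Only 47.5% of the 100-base windows of Mup-ps16 were its own. Its counts can thus hold reads of other copies, and its p-values are no separate evidence. Mup6, at 0.714 to 4.30 CPM over all mice, rose in NASH+Exercise against Control by 1.38 ± 0.39 (SE; edgeR, adjusted p = 0.025).

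The genes of growth hormone signalling in the liver, the pathway to which Mup transcription answers, were mostly not called. Of 13 tested, Socs1 and Socs3, feedback inhibitors of cytokine signalling, were called higher in NASH and Igfals, which carries IGF1 in blood, was called lower, by 1.97 ± 0.30, 1.27 ± 0.42 and -1.25 ± 0.21 on the log2 scale (SE; edgeR, adjusted p = 0.00056, 0.039 and 0.00095). Over all genes tested, 15.3% were called higher and 3.03% lower. With library size alone 4 of the 13 were called higher and 0 lower, and Igfals was short of the fold threshold. Ghr, the growth hormone receptor, had 389, 323 and 335 CPM in Control, 247, 239 and 250.1 CPM in NASH, and 342, 344 and 406 CPM in NASH+Exercise. Its NASH mice were below all others, at a log2 fold change of -0.51 ± 0.13 (SE; edgeR, adjusted p = 0.012) against Control, under the fold threshold. Its difference between NASH+Exercise and NASH was 0.57 ± 0.13 (SE; edgeR, adjusted p = 0.12).

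Stat5b, the transcription factor downstream of the receptor, had 47.4 to 72.8 CPM in Control, 51.8 to 87.2 CPM in NASH and 52.6 to 75.3 CPM in NASH+Exercise, with full overlap. Socs2 and Cish, feedback targets of STAT5, overlapped between all groups and had log2 fold changes of -0.07 ± 0.53 and 1.35 ± 0.74 in NASH against Control (SE; edgeR, adjusted p = 0.93 and 0.19). Igf1, the growth factor made under growth hormone, had 427 to 608 CPM in Control, 347 to 388 CPM in NASH and 350.2 to 405 CPM in NASH+Exercise. It stood at a log2 fold change of -0.59 ± 0.16 in NASH against Control (SE; edgeR, adjusted p = 0.015) and 0.08 ± 0.16 in NASH+Exercise against NASH (SE; edgeR, adjusted p = 0.87). Training moved 0 of the 13 genes past the thresholds in edgeR or DESeq2 when set against sedentary NASH, and 4 had an unadjusted p under 0.05 in edgeR. Of all genes tested, edgeR called 0.103% higher and 0.0367% lower in this comparison.

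Of 14 genes for regulators of Mup transcription, among them the androgen receptor, thyroid hormone receptors and liver transcription factors, 0 were called in NASH against Control by edgeR or DESeq2 and 4 had an unadjusted p under 0.05 in edgeR. Of all genes tested, edgeR called 15.3% higher and 3.03% lower in NASH against Control. The most abundant of the 14 regulators were Hnf4a and Cebpa, factors of hepatocyte identity. Hnf4a had 850 to 943 CPM in Control, 542 to 732 CPM in NASH and 581 to 897 CPM in NASH+Exercise, a log2 fold change of -0.45 ± 0.19 in NASH (SE; edgeR, adjusted p = 0.088). Cebpa had -0.46 ± 0.15 (SE; edgeR, adjusted p = 0.030). Between trained and sedentary NASH mice, edgeR called 0 and DESeq2 called 1 of the 14, as higher. In edgeR 5 had an unadjusted p under 0.05, and 10 estimates were higher and 4 lower. The list holds Dio1, a thyroid hormone deiodinase. The authors reported it as higher with training, from RNA sequencing analysed with DESeq2, from qPCR and from immunohistochemistry of liver sections. Dio1 had 27.2 to 76.5 CPM in Control, 26.5 to 42.2 CPM in NASH and 64.7 to 180 CPM in NASH+Exercise. It differed between NASH+Exercise and NASH by 1.92 ± 0.43 (SE; edgeR, adjusted p = 0.13). Cux2, a female-biased repressor of male genes, was called lower in NASH+Exercise against Control at -2.05 ± 0.56 (SE; edgeR, adjusted p = 0.021), at levels of 0.146 to 2.04 CPM.

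Of other genes that male liver expresses above female liver, part were called lower in NASH. Of 17 tested, edgeR called 8 lower and 0 higher in NASH against Control, against 3.03% and 15.3% of all genes tested. The median log2 fold change was -1.05 against 0.013 for all genes. At an unadjusted p under 0.05, 11 were lower and 0 higher in edgeR. DESeq2 called 10 lower and 0 higher, and edgeR with library size alone called 5 lower and 0 higher. Susd4, a membrane regulator of complement, had 31.6, 54.8 and 33.3 CPM in Control, 3.41, 2.52 and 4.04 CPM in NASH, and 12.0, 17.0 and 23.1 CPM in NASH+Exercise. Its log2 fold changes of -3.59 ± 0.31 in NASH against Control and 2.39 ± 0.31 with training were both called (SE; edgeR, adjusted p = 2.7e-05 and 0.040). Elovl3, a fatty acid elongase, and Serpina1e, a secreted serine protease inhibitor, were lower in NASH, at -2.82 ± 0.81 and -2.69 ± 0.60 on the log2 scale (SE; edgeR, adjusted p = 0.024 and 0.0070).

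With training, 17 of 17 male-biased genes had a higher estimate than in NASH, though not in every trained mouse. Elovl3 had 43.6, 462 and 55.1 CPM in NASH+Exercise and 104, 92.6 and 143 CPM in NASH. Its higher estimate thus rested on NASH+Exercise replicate 18. The median log2 fold change was 1.04 against -0.034 for all genes. In edgeR 4 were called higher, against 0.103% of all genes tested. Besides Susd4 these were Cyp7b1, an oxysterol hydroxylase, with 2.06 ± 0.30, Nudt7, a peroxisomal hydrolase, with 1.93 ± 0.27, and the cytochrome Cyp2u1, with 1.33 ± 0.18 (SE; edgeR, adjusted p = 0.040 for each). With library size alone 2 of the 17, Susd4 and Cyp7b1, were called. Cyp7b1 had 187 to 276 CPM in Control, 40.1 to 62.6 CPM in NASH and 137 to 317 CPM in NASH+Exercise, an order like that of the Mup genes. Cyp2u1 had 6.22 to 8.59, 5.02 to 7.22 and 15.3 to 16.5 CPM, and was above Control in trained mice. The number of called genes in this comparison over 6 lists, the other Mup genes, growth hormone signalling, regulators, male-biased genes, female-biased genes and other lipocalins, fell from 7 to 0 without Control replicate 3, NASH replicate 5 or 20, or NASH+Exercise replicate 18 or 22, to 1 without NASH replicate 19 and to 4 without Control replicate 4. It was 11 without NASH+Exercise replicate 8 and 23 with DESeq2.

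Female-biased genes were called in both directions in NASH. Of 18 tested, 2 were called higher and 5 lower in NASH against Control, against 15.3% and 3.03% of all genes tested. Atp6v0d2, a proton pump subunit also known in macrophages, rose by 3.65 ± 0.66 and Cyp2a4 by 2.55 ± 0.84 (SE; edgeR, adjusted p = 0.0024 and 0.039). The lower ones included Cyp2b10, Acot3 and Cyp2c69, with -5.53 ± 0.83, -4.20 ± 0.64 and -4.03 ± 0.44 (SE; edgeR, adjusted p = 0.00075, 0.00090 and 7.7e-05). With training 15 of 18 had a lower estimate than in NASH and edgeR called 0, with a median of -0.69, 8 at an unadjusted p under 0.05 and 4 called lower by DESeq2. Against Control, 8 were called lower in NASH+Exercise and 1 higher, where 3.07% of all genes tested were called lower and 10.4% higher.

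**Figure D5:**
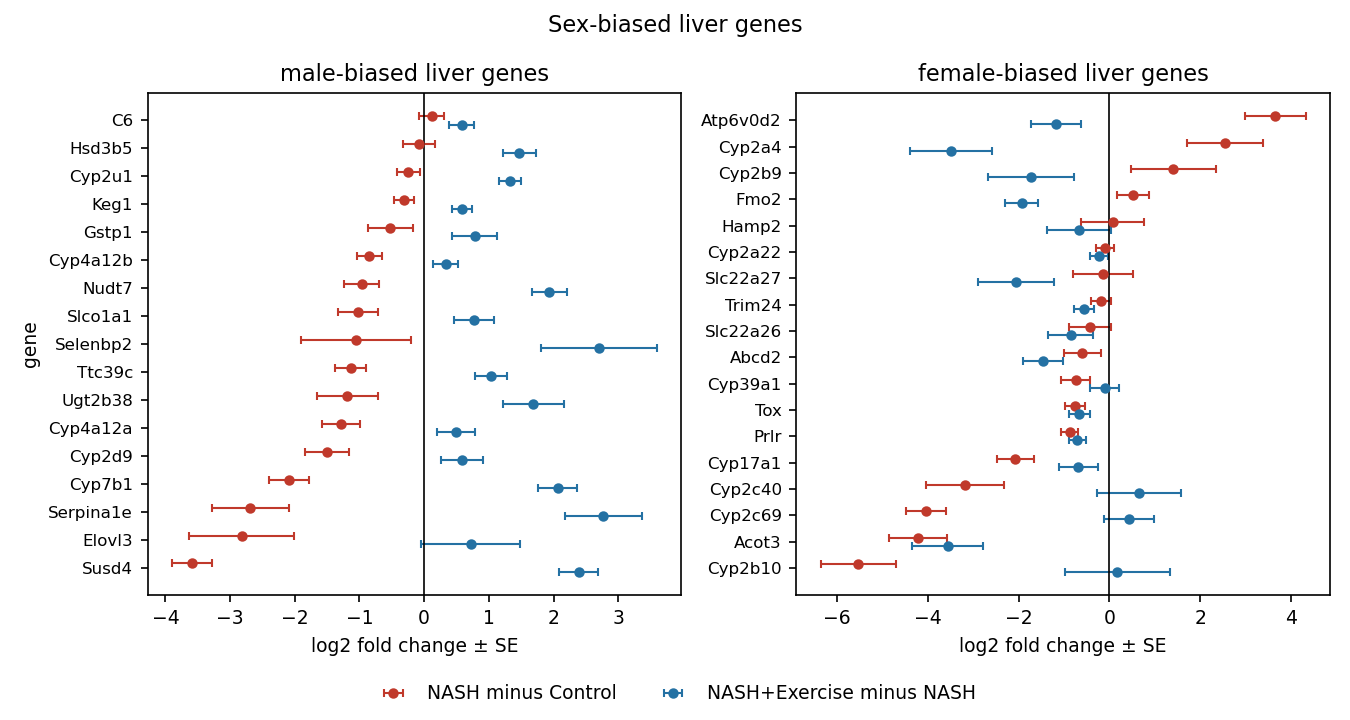
Log2 fold change ± SE of 17 male-biased (left) and 18 female-biased (right) liver genes in NASH minus Control (red) and NASH+Exercise minus NASH (blue), which share the NASH mice. All 17 blue points of the male-biased genes lie above 0, that of Elovl3 at 0.72 ± 0.77. The red points run from -3.59 to 0.12 for the male-biased genes and from -5.53 to 3.65 for the female-biased genes.

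Lipocalins outside the Mup cluster went both ways in NASH. Of 9 tested, edgeR called 5 higher and 0 lower in NASH against Control, against 15.3% and 3.03% of all genes tested. DESeq2 called 1 lower, and 3 were lower at an unadjusted p under 0.05 in edgeR. These 3 were Rbp4, the carrier of retinol in blood, Apom, an apolipoprotein, and C8g, a complement subunit, named after their values were seen, at -0.98 ± 0.17, -0.65 ± 0.16 and -0.53 ± 0.19 on the log2 scale, short of the fold threshold (SE; edgeR, adjusted p = 0.0013, 0.0099 and 0.046). All NASH mice were below all Control mice in each of them, with 4225 to 5134 CPM of Rbp4 in Control and 2142 to 2602 CPM in NASH. Lcn2, an iron-trapping protein of the acute phase, rose from 3.17 to 6.39 CPM in Control to 329 to 609 CPM in NASH, by 6.55 ± 0.50 (SE; edgeR, adjusted p = 1.7e-05). Orm2 and Orm3, acute phase glycoproteins, rose by 4.53 ± 0.52 and 3.89 ± 0.28 (SE; edgeR, adjusted p = 0.00018 and 8.2e-06). Orm3 rose further in NASH+Exercise against NASH, by 1.58 ± 0.23 (SE; edgeR, adjusted p = 0.040), a call lost with library size alone.

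Most other secreted proteins of hepatocytes were not called. Of 23 tested, 1 was called higher and 2 lower in NASH against Control, against 15.3% and 3.03% of all genes tested. With library size alone 1 was called higher and 0 lower. The median log2 fold change was -0.31, with a range of -1.22 to 1.41. In NASH+Exercise against NASH the median was 0.33, edgeR and DESeq2 called 0, and 4 were at an unadjusted p under 0.05 in edgeR. Some markers of other cells were called higher in NASH than in Control, where 15.3% of all genes tested were called higher. They were markers of macrophages (9 of 10 called), neutrophils (4 of 6), T and B cells (4 of 8), stellate cells (3 of 6) and cholangiocytes (3 of 5). For endothelial cells 1 of 5 was called, and nothing is read from that count. Summed stellate cell markers had 55.0 to 86.0 CPM in Control, 231 to 290 CPM in NASH and 101 to 170 CPM in NASH+Exercise. Between trained and sedentary NASH mice 0 of these marker genes were called by edgeR, 7 were lower at an unadjusted p under 0.05, and DESeq2 called 2. The part of cell make-up in the Mup values was not tested.

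Over the 9 mice, the genes outside the family whose log2 CPM most resembled the summed Mup rows, among 7828 genes of at least 10 CPM on average, were Serpine2, Serpina1e, Hibadh, Fmc1 and Polr2i. Their Pearson correlations were 0.98, 0.98, 0.97, 0.96 and 0.96, given as a description over mice that fall into 3 groups. Serpine2, an inhibitor of thrombin and plasmin, had 48.1, 67.4 and 21.2 CPM in Control, 11.2, 12.9 and 12.0 CPM in NASH, and 23.2, 45.9 and 56.0 CPM in NASH+Exercise. As in the near-identical Mup copies, Control replicate 29 and NASH+Exercise replicate 8 were the lowest mice of their groups. Serpina1e had 9324, 21283 and 4421 CPM in Control, 1967, 1438 and 2035 CPM in NASH, and 5881, 10759 and 20525 CPM in NASH+Exercise, with the same mice lowest. Hibadh, an enzyme of valine breakdown, had a narrower range, with 207 to 310 CPM in Control, 181 to 196 CPM in NASH and 231 to 283 CPM in NASH+Exercise.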

How the data were processed

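Liver RNA of 9 mice was sequenced, 1 library per mouse and 3 mice in every group, as the labels give them (Con, Ath diet, EXE+Ath diet). The tables deposited by the authors hold, by Entrez gene, estimated counts without normalization, FPKM scaled by length and depth, and TPM scaled to 1 common total per library. FPKM was not used. The submitters' processing notes name HISAT2 2.1.0, Bowtie2 2.2.5, RSEM 1.2.8 and GRCm38.p6, and their order and annotation are not given in the sources used here. Between 29.0 and 32.8% of estimated counts in a library were not whole, and they were rounded. RefSeq symbols matched 17728 of 17846 identifiers, and 285536 values held in more than 1 file were compared, of which 0 differed.

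Counts entered edgeR 4.0.16 (R 4.3.3). Low genes were removed by group with filterByExpr (10 counts, 15 in total), libraries were scaled by TMM, and 1 robust quasi-likelihood model held the 9 mice with a term for group. P-values were adjusted over the 13619 genes left by the Benjamini-Hochberg method. CPM are TMM-scaled. DESeq2 1.42.0 and limma 3.58.1 on log2(TPM + 1) were alternatives, and all tools were tested on simulated data. The reads carry no molecular identifiers, and with 3 mice a group the spread between mice limits precision more than depth does. The labels list the mice of a group as separate samples. Coding identity came from global alignment of GENCODE M21 transcripts, 1 per gene.

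The 10 genes and all gene lists were chosen with earlier results of these data known. The text names the 10 genes, the other Mup rows as a group and the 2 of them with the highest mean TPM, Ghr, Stat5b, Socs2, Cish and Igf1, up to 3 called genes per list, comparison and direction with the largest fold change (or the 2 most abundant where none was called), and the 5 genes most correlated with the Mup sum. Dio1 was named because the authors reported it. Lists were described by counts and medians, without a set test.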

Additional observations from a re-analysis of the deposited data

How the results depend on the processing

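With 3 mice a group, calls in NASH+Exercise against NASH depended on single mice and on the tool, while none of the 10 genes changed sign in NASH against Control or in NASH+Exercise against NASH under the alternatives run. The count of called genes among the 10, 4 in edgeR with all 9 mice, was 8 with DESeq2, 1 without the filter on low counts and 1 with only the 6 mice compared, and 0 to 5 when each mouse was left out in turn. In NASH against Control it was 8, with 7 by library size alone, where Mup3 was short of the fold threshold, 7 by limma on log2(TPM + 1), and 8 to 9 with each mouse left out. In NASH+Exercise against Control it was 0, with 1 by DESeq2 and 1 by limma on log2(TPM + 1), and 0 to 1 with each mouse left out. Called genes over 6 other lists (other Mup genes, growth hormone signalling, regulators, male-biased and female-biased genes and other lipocalins, without hepatocyte proteins and cell markers) in NASH+Exercise against NASH numbered 7, 3 with library size alone and 23 with DESeq2, and 0 to 11 with each mouse left out. Over the same 6 lists they numbered 34 in NASH against Control and 24 in NASH+Exercise against Control, and 29 to 35 and 21 to 26 with each mouse left out.

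The summed family had a log2 ratio of means of -1.35 in NASH against Control, -0.87 by summed TPM, -2.42 for the 10 genes, and, in alternatives chosen after seeing the data, -2.57 without Mup20 and -2.97 for the near-identical rows. In NASH+Exercise against NASH it was 1.42, 1.09 by TPM, 2.04 for the 10 genes, 2.26 without Mup20 and 2.64 for the near-identical rows. In NASH+Exercise against Control it was 0.07 and changed sign to -0.38 for the 10 genes, -0.31 without Mup20 and -0.33 for the near-identical rows, sums that leave out Mup20. With each mouse left out it ran from -1.62 to -1.13, from 1.26 to 1.60 and from -0.20 to 0.29, and was below 0 in the last comparison without Control replicate 29 (-0.20) or NASH+Exercise replicate 22 (-0.10). For the genes outside the 10 that the naming rules picked, each gene, comparison and alternative was counted separately. The alternatives were library size alone, DESeq2, no filter on low counts and each mouse left out. A call was lost 85 times and gained 21 times, and calls of the 10 genes are not in these numbers. No paired analysis was possible because the groups share no replicate numbers.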
